A study of Mus musculus with 4 samples.

Results

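Adipoq, Plin1, Plin2, Cfd, Car3, Cidec, Fabp4, Lpl, Pnpla2 and Retn are 10 of the 32285 genes counted in spatial transcriptomes of the inflamed mouse pancreas, chosen by name as genes of the adipocyte and of the lipid droplet. All 10 were found in the gene lists of the 4 sections. The sections came from C57Bl/6 mice of 4 weeks of age, fasted for 12 h and given caerulein, a peptide like cholecystokinin that overstimulates acinar cells and brings on acute pancreatitis, in 8 hourly injections of 50 μg/kg, and the pancreas was collected 18 h after the first dose. In the labels, 2 sections are PDX1-Cre (WT), called Ehmt2+/+ here, and the other 2 are EHMT2 knockout (KO) PDX-Cre, called Ehmt2fl/fl. Ehmt2 encodes a histone H3 lysine 9 methyltransferase. All 4 sections came from mice with the Pdx1-Cre transgene, which acts in pancreatic epithelium. Adipocytes, macrophages and vessels of the Ehmt2fl/fl mice would thus be expected to keep a working Ehmt2 gene, which was not checked here. No section of a mouse without caerulein was analysed here.

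White adipocytes store triglyceride in a single large droplet coated by perilipin 1 and enlarged by the Cidec protein, and they secrete adipokines such as adiponectin and adipsin. Most other cells, acinar cells and macrophages among them, hold small droplets coated by perilipin 2, which rises when fatty acids are stored. Triglyceride in the blood is split by lipoprotein lipase at the capillary wall, and droplet triglyceride is split by adipose triglyceride lipase, the product of Pnpla2. Fat lies between and around the pancreatic lobules, so a section can hold both kinds of droplet.

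In this assay gene-specific probes are captured in barcoded spots, each of which can hold several cells, and a unique molecular identifier (UMI) lets every captured molecule count once. The Ehmt2+/+ sections held 44520453 and 8914187 UMIs and the Ehmt2fl/fl sections 7195548 and 8685493. Spots over tissue, separated from empty spots by the low point of each section's UMI histogram, numbered 6183 and 10285 in Ehmt2+/+ and 7587 and 8443 in Ehmt2fl/fl. Their median was 6285 and 759 UMIs in Ehmt2+/+ and 914 and 932 UMIs in Ehmt2fl/fl. Of the UMIs in these spots, 62.6% and 50.6% in Ehmt2+/+ but 21.3% and 20.6% in Ehmt2fl/fl were of digestive enzyme genes, which mark the acinar cell. Levels are therefore given both as CPM, a gene's UMIs in every 1000000 UMIs of all genes, and as non-enzyme CPM, its UMIs in every 1000000 UMIs of genes outside the enzyme list. The signal of the Ehmt2 probes was 19.7 and 3.79 CPM in Ehmt2+/+ and 10.4 and 11.9 CPM in Ehmt2fl/fl, and where these probes lie relative to the deleted part was not known, so it does not check the labels. Y-linked genes gave 2 and 1 UMIs in the Ehmt2+/+ sections and 277 and 432 in the Ehmt2fl/fl sections, so sex and genotype cannot be told apart in any comparison below. A lower number of cells of a type and less RNA per cell cannot be told apart either.

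Upstream sequences are shown for Plin2 and Cfd. The UMIs of Plin2, like those of Lpl and Retn, lay almost all outside fat-type spots, and the level of Cfd was highest in those spots. They are the 250 bases before the RefSeq transcription start in GRCm38.p6, at chr4:86670060-86670309 on the minus strand for Plin2 and chr10:79890603-79890852 on the plus strand for Cfd. The capitals mark the nuclear receptor element AGGTCA or its reverse complement TGACCT.
Plin2: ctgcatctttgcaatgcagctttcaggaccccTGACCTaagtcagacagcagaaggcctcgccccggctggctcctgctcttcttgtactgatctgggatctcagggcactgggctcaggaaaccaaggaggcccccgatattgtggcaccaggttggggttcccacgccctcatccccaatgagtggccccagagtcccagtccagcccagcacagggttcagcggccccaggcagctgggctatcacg
Cfd: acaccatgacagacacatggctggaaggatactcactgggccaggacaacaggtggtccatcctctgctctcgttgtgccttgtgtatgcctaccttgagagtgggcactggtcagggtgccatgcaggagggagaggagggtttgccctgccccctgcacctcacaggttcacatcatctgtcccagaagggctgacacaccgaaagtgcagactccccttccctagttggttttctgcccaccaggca
The Plin2 window holds 1 element, which begins 218 bases before the start, and the Cfd window holds none. RefSeq windows were found for 7 of the 10 genes, 8 windows in all, and 1 of the 8 holds the element on either strand, against 14.0% of the 32851 windows of all genes. The E-box CACGTG is in 0 of the 8 and in 6.02% of all windows. No window of these genes has 2 copies of the element in a row with 1 base between, the form bound by the adipocyte regulator PPAR gamma, which 0.0335% of all windows hold. Windows for Car3, Fabp4 and Lpl were not used here.

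Adiponectin, the main hormone of fat cells, is encoded by Adipoq at chr16:23146536-23158028 on the plus strand. Over tissue, Adipoq gave 20 and 84 UMIs in Ehmt2+/+ and 130 and 195 UMIs in Ehmt2fl/fl, or 0.457 and 9.66 CPM against 18.6 and 22.9 CPM. Both Ehmt2fl/fl sections were above both Ehmt2+/+ sections, but Ehmt2+/+ section 1 was far below its own replicate. Probes of the 1107 olfactory receptor genes, which the pancreas is not expected to use, showed the level at which a silent gene was read in each section. Their median was 0.251 and 5.52 CPM in Ehmt2+/+ and 8.43 and 12.9 CPM in Ehmt2fl/fl. The Ehmt2 probes, at 19.7 and 3.79 CPM in Ehmt2+/+ and 10.4 and 11.9 CPM in Ehmt2fl/fl, were below it in section 2 of either genotype. Against that median Adipoq stood 1.82 and 1.75 times higher in Ehmt2+/+ and 2.20 and 1.77 times higher in Ehmt2fl/fl. Of the olfactory receptor genes, 14.1% and 4.52% in Ehmt2+/+ and 2.98% and 2.89% in Ehmt2fl/fl were at or above Adipoq.

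Plin1 (chr7:79720218-79732903, minus strand), the coat protein of the large droplet, gave 10 and 53 UMIs in Ehmt2+/+ and 62 and 126 in Ehmt2fl/fl, or 0.228, 6.09, 8.86 and 14.8 CPM. Its ratio to the olfactory receptor median was 0.909, 1.10, 1.05 and 1.15 in the same order. Cidec (chr6:113424634-113435760, minus strand), which fuses small droplets into large ones, gave 10, 37, 43 and 80 UMIs, or 0.228, 4.25, 6.14 and 9.41 CPM, and its ratio to that median was 0.909, 0.771, 0.729 and 0.727. The levels of both genes were thus close to those of receptors foreign to the tissue, and the sections stood in the same order for both genes and for the receptor median. Retn (chr8:3655770-3660110, plus strand), which encodes the adipokine resistin, gave 18, 53, 114 and 139 UMIs, or 0.411, 6.09, 16.3 and 16.4 CPM, with ratios of 1.64, 1.10, 1.93 and 1.26.

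The remaining 6 genes stood above the 95th percentile of the olfactory receptors in all 4 sections. Adipsin, the complement factor D secreted by fat, is encoded by Cfd (chr10:79890853-79892655, plus strand), which gave 1.10 and 18.9 CPM in Ehmt2+/+ and 48.3 and 56.7 CPM in Ehmt2fl/fl. Car3 (chr3:14863512-14872523, plus strand), a carbonic anhydrase abundant in fat and in skeletal muscle, gave 3.22 and 35.5 CPM against 81.0 and 177 CPM. Fabp4 (chr3:10204088-10208576, minus strand), the fatty acid carrier of adipocytes that capillary endothelium and macrophages also use, gave 39.8 and 88.3 CPM against 298 and 336 CPM. Each of these 3 was higher in both Ehmt2fl/fl sections, and each also differed between the Ehmt2+/+ sections, Car3 and Cfd by a larger ratio than that of either Ehmt2fl/fl section to Ehmt2+/+ section 2.

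Plin2 (chr4:86648386-86670060, minus strand) was counted 742 and 261 times in Ehmt2+/+ and 1043 and 975 times in Ehmt2fl/fl, or 16.9 and 30.01 CPM against 149 and 115 CPM. The lipoprotein lipase gene Lpl (chr8:68880491-68907448, plus strand) gave 9.57 and 13.5 CPM against 33.3 and 28.5 CPM. Pnpla2 (chr7:141455198-141460743, plus strand) gave 41.9 and 30.2 CPM in Ehmt2+/+ and 32.3 and 39.5 CPM in Ehmt2fl/fl, the only gene of the 10 whose CPM overlapped between genotypes. Both Ehmt2fl/fl sections were above both Ehmt2+/+ sections in CPM for 9 of the 10 genes, but 90.2% of the 20387 genes compared did the same. In non-enzyme CPM this held for 7 of the 10 genes, Plin1, Cidec and Pnpla2 being the exceptions, against 48.0% of all genes.

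**Figure D1:**
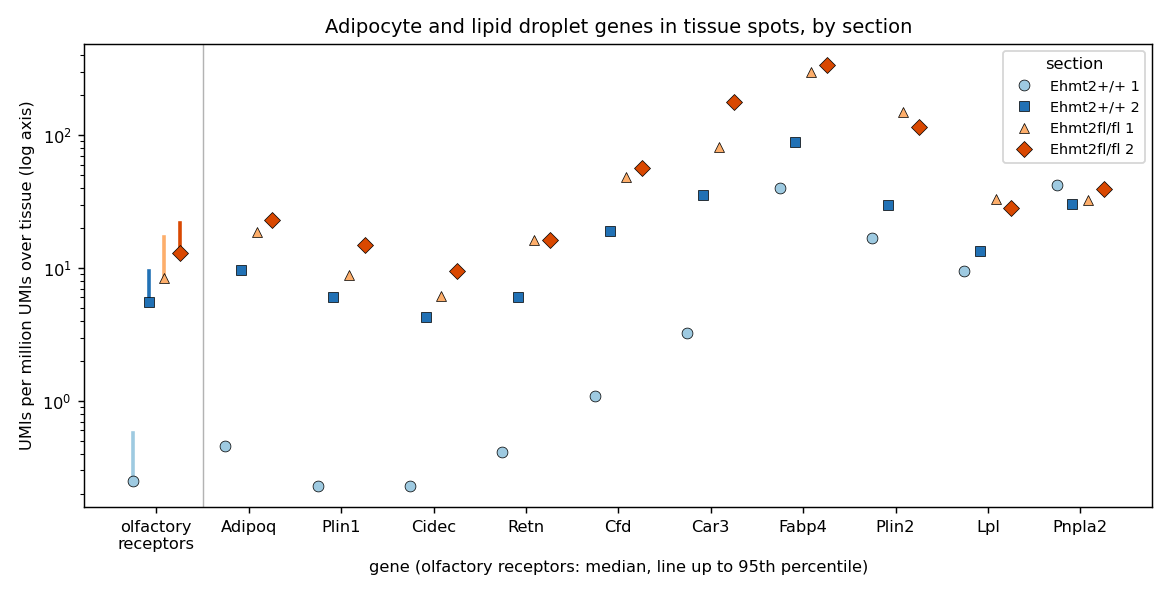
CPM over tissue (log axis) of the 10 genes in each section, 1 point per section, with the median of the 1107 olfactory receptor genes at the left and a line up to their 95th percentile. Adipoq, Plin1, Cidec and Retn run close to the olfactory receptors of the same section, and the other 6 genes lie above them.

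Spots over fat were sought with 12 other adipocyte genes, none of the 10 among them (Plin4, Scd1, Lipe, Aqp7, Adrb3, Pparg, Thrsp, Acvr1c, Lep, Slc36a2, Cidea and Mrap). Spots with at least 3 UMIs and at least 30 per 10000 UMIs of this list, called fat-list spots, numbered 1 and 5 in Ehmt2+/+ and 17 and 40 in Ehmt2fl/fl, or 0.0162% and 0.0486% against 0.224% and 0.474% of the spots over tissue. The difference between genotype means was 0.317 percentage points, with both Ehmt2fl/fl sections above both Ehmt2+/+ sections (two-sided exact permutation test over sections, p = 0.333, n = 2 per genotype). With 2 sections against 2 that is the smallest p such a test can give, here and for every share below. Of the 63 fat-list spots, 41 held only 3 or 4 UMIs of the list, and only 3 of the 12 genes were above the 95th percentile of the olfactory receptors in all 4 sections. A spot of few UMIs reaches the limit with 3 UMIs of the list and a deep spot needs more, and the median tissue spot held 6285, 759, 914 and 932 UMIs. The olfactory receptor median, at 0.251, 5.52, 8.43 and 12.9 CPM, put the sections in the same order as the share of fat-list spots. Genotype, the place at which each section was cut, depth and probe background cannot be told apart.

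The 10 genes took no part in choosing these spots, and the sum of their levels was 7991 and 10672 CPM in the fat-list spots of Ehmt2+/+ and 12777 and 17902 CPM in those of Ehmt2fl/fl. In exocrine spots, those with at least 10% of UMIs from the enzyme list and not in the fat-list class, the sum was 114 and 217 CPM against 536 and 480 CPM. In fat-list spots Car3, Cfd and Fabp4 made up from 93.3% to 100% of the sum, and in exocrine spots from 38.6% to 54.9%. Fabp4 stood at 5708, 3842, 4674 and 8227 CPM in the fat-list spots of the 4 sections in the order above, from 20.2 to 144 times its exocrine level. Car3 stood at 1142, 3415, 3662 and 7334 CPM there, from 111 to 357 times the exocrine level, and Cfd at 1142, 2988, 3584 and 1520 CPM, from 71.9 to 1064 times. In Ehmt2+/+ section 1 these values rest on a single spot, with 5 UMIs of Fabp4 and 1 each of Car3 and Cfd.

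The markers that define the adipocyte were sparse in the same spots. Over the 63 fat-list spots Adipoq gave 11 UMIs in 10 spots, Plin1 10 UMIs in 10 spots, Retn 6 UMIs in 5 spots and Cidec 1 UMI in 1 spot, while Car3 gave 368 UMIs, Fabp4 424 and Cfd 124. Plin2 gave 4 UMIs in 4 of the 63 spots. In Ehmt2fl/fl, where it was seen there at all, it stood at 77.9 and 72.4 CPM, below its exocrine level of 146 and 113 CPM, on 1 and 3 UMIs.

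A wider class was formed after these values were seen: spots with at least 2 UMIs of at least 2 of Car3, Cfd and Fabp4. There were 12 and 18 such spots in Ehmt2+/+ and 66 and 152 in Ehmt2fl/fl, or 0.194% and 0.175% against 0.870% and 1.80% of tissue spots, and 42 of the 248 were fat-list spots. Some also count as exocrine spots, and in Ehmt2+/+ section 1 all 12 do, so there a ratio to exocrine spots sets a part against the whole. Digestive enzyme genes summed to 529921 and 177022 CPM in the class in Ehmt2+/+ and to 45898 and 12830 CPM in Ehmt2fl/fl. The levels of the 3 genes that chose these spots are no finding. Cox7a1, Ucp1 and 4 other brown fat genes summed to 0, 256, 43.6 and 139 CPM there, against 3.88, 53.3, 86.6 and 106 CPM in exocrine spots, and 7 skeletal muscle genes to 0, 0, 43.6 and 117 CPM against 2.19, 38.6, 49.3 and 85.6 CPM. Fibroblast genes (Col1a1, Dcn and others) summed to 1801, 1493, 3816 and 4614 CPM there, against 416, 568, 1857 and 1650 CPM in exocrine spots. Lymphoid genes (Cd79a, Cd3e and others) summed to 35.3, 810, 938 and 1028 CPM, against 3.68, 68.2, 115 and 139 CPM. The 35.3 CPM in Ehmt2+/+ section 1 is 1 UMI. Macrophage genes (C1qa, Csf1r and others) summed to 212, 597, 741 and 1183 CPM, against 72.4, 137, 693 and 539 CPM. Capillary endothelium genes (Pecam1, Cdh5 and others) summed to 106, 469, 872 and 858 CPM, against 102, 200, 545 and 462 CPM. The 12 fat-list genes summed to 565, 1066, 1614 and 1801 CPM, against 31.6, 109, 179 and 213 CPM. In CPM the class was thus rich in fibroblast and lymphoid genes as well as in fat genes. Its macrophage and endothelium sums were also above those of exocrine spots, by little in some sections.

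Of the genes that did not choose these spots, Adipoq was higher in them than in exocrine spots of all 4 sections, with log2 ratios of 8.27, 3.83, 3.35 and 3.07 on 4, 3, 7 and 26 UMIs. Retn was higher in all 4, with log2 ratios of 6.42, 3.87, 2.30 and 1.83 on 1, 2, 3 and 9 UMIs, and so was Cidec on 1, 1, 3 and 7 UMIs. In these spots the 95th percentile of the olfactory receptors was 0, 85.3, 43.6 and 37.3 CPM. Retn stood at 35.3, 85.3, 65.4 and 48.0 CPM there and Cidec at 35.3, 42.6, 65.4 and 37.3 CPM. Retn and Cidec were thus not above that percentile in every section. Plin1 gave no UMI there in either Ehmt2+/+ section and 7 and 20 UMIs in Ehmt2fl/fl, at log2 ratios of 4.36 and 3.17. Pnpla2 was 4.21, 4.20, 4.26 and 10.2 times its exocrine level, on 5, 3, 6 and 60 UMIs, and the 4 sections lay on the same side. Lpl gave 4, 0, 2 and 12 UMIs there. The log2 ratio of Plin2 was 2.06 and 0.53 in Ehmt2+/+, on 2 UMIs and 1 UMI. In Ehmt2fl/fl it was -1.16 and -0.08, on 3 and 20 UMIs. These ratios and those above are of CPM. Enzyme genes made up less of the UMIs in the class than in exocrine spots of each section, which raises the CPM of other genes there. In Ehmt2fl/fl section 2, which had the most Plin2 UMIs there, Plin2 was 108 non-enzyme CPM against 150 in exocrine spots.

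**Figure D2:**
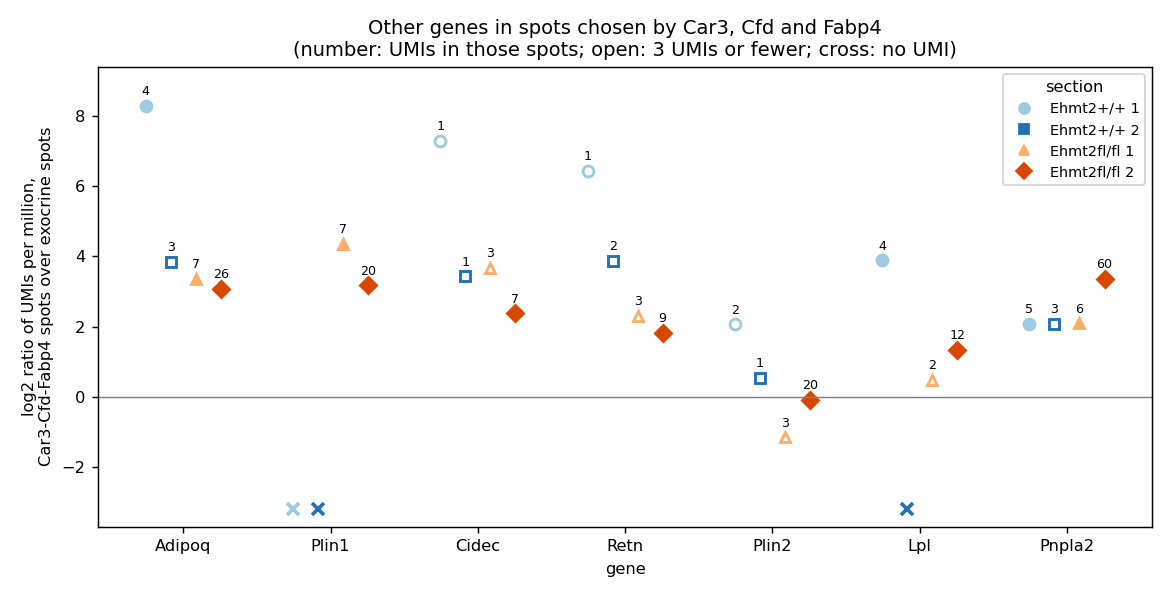
Log2 ratio of CPM in Car3-Cfd-Fabp4 spots over exocrine spots for the 7 genes that did not choose the spots, 1 point per section, with the number of UMIs behind each point. Adipoq, Retn, Cidec and Pnpla2 lie above 0 in all 4 sections and Plin2 lies near 0 in Ehmt2fl/fl section 2, where it rests on 20 UMIs. Enzyme genes made up less of the UMIs in these spots than in exocrine spots, which raises the CPM of other genes there.

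Across all spots over tissue, Car3 and Cfd varied together with a mean Pearson r of 0.31 over the 4 sections, Car3 and Fabp4 with 0.24 and Cfd and Fabp4 with 0.17. The points are spots of the same library, counts are sparse, and these values are descriptions. No other pair of the 10 genes reached a mean r of 0.14, and Plin2 with Car3 gave 0.00. Spots of either fat-type class held between 22.7% and 66.8% of a section's Car3 UMIs and between 25.6% and 49.0% of its Cfd UMIs. For Fabp4 the range was 3.39% to 35.9%, and for Plin2 it was 0.270% to 2.05%. Car3, Cfd and Fabp4 chose the wider of these classes, so their shares are raised by that choice and cannot be set against that of Plin2. The fat-list spots alone, which none of the 10 genes chose, held 0.709% to 20.2% of Car3 and 2.08% to 13.6% of Cfd UMIs. For Fabp4 they held 0.287% to 11.9% and for Plin2 0% to 0.308%. The share of the UMIs of all genes held by either class was not counted.

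Droplet genes were next read in the exocrine tissue itself. Exocrine spots numbered 6182 and 10061 in Ehmt2+/+ and 5947 and 5927 in Ehmt2fl/fl. Plin2 stood at 16.9 and 29.5 CPM in Ehmt2+/+ and 146 and 113 CPM in Ehmt2fl/fl. In non-enzyme CPM it was 45.3 and 60.5 in Ehmt2+/+ and 193 and 150 in Ehmt2fl/fl, or 52.9 ± 10.7 against 171 ± 30.8 (SD, n = 2), a ratio of 3.24. The genotypes did not overlap on either scale (exact permutation test, p = 0.333). No spot of any section held more than 4 Plin2 UMIs, so its signal was spread thinly and not held by a few spots.

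The share of exocrine spots with at least 1 Plin2 UMI was 10.8% (95% Clopper-Pearson interval 10.1 to 11.6) and 2.46% (2.17 to 2.79) in Ehmt2+/+ and 13.1% (12.3 to 14.0) and 11.7% (10.9 to 12.5) in Ehmt2fl/fl. The difference between genotype means was 5.77 percentage points (exact permutation test, p = 0.333). It depended on the deep library: without Ehmt2+/+ section 2 it was 1.59 points and without Ehmt2+/+ section 1 it was 9.95 points. When every spot was thinned to 500 UMIs the shares became 0.999% and 1.48% in Ehmt2+/+ and 7.37% and 5.99% in Ehmt2fl/fl, over 6143, 7778, 5361 and 4905 spots that were deep enough. Thinned to 200 non-enzyme UMIs, they were 1.003% and 1.20% against 3.91% and 3.16%. The median olfactory receptor gene, at 500 UMIs, was seen in 0.0168% and 0.261% of exocrine spots in Ehmt2+/+ and 0.386% and 0.580% in Ehmt2fl/fl, below Plin2 in each section. That receptor share was thus also higher in both Ehmt2fl/fl sections. At 200 non-enzyme UMIs the receptor shares overlapped, at 0.0169% and 0.216% against 0.209% and 0.307%. The share of all genes separated after thinning was not counted. Off the tissue, at a median of 36, 31, 11 and 11 UMIs a spot, Plin2 was seen in 0.112%, 0.123%, 0.311% and 0.288% of spots. For the UMIs present its level there was like that of exocrine spots, at 17.8, 28.8, 146 and 140 CPM against 16.9, 29.5, 146 and 113 CPM. These off-tissue levels rest on 9, 5, 20 and 17 UMIs, and spread of RNA between spots was not tested.

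**Figure D3:**
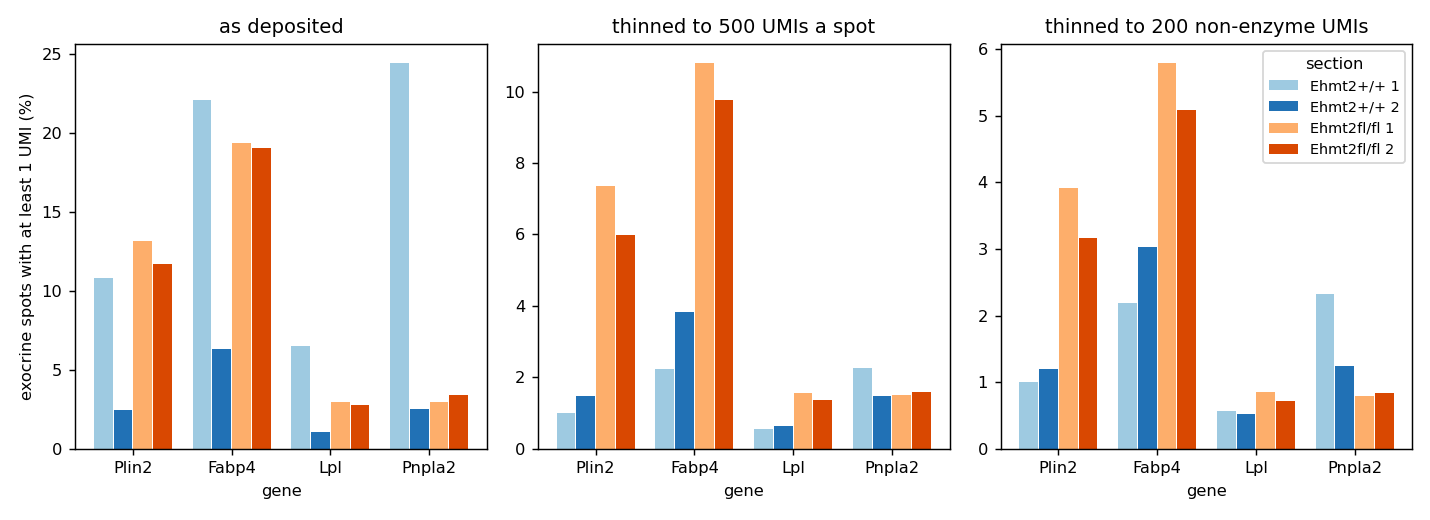
Percent of exocrine spots with at least 1 UMI of Plin2, Fabp4, Lpl and Pnpla2 in each section, as deposited (left), thinned to 500 UMIs a spot (middle) and thinned to 200 non-enzyme UMIs (right). After thinning, both Ehmt2fl/fl sections are above both Ehmt2+/+ sections for Plin2, Fabp4 and Lpl, and Pnpla2 is highest in Ehmt2+/+ section 1. The share of all genes separated in this way was not counted, and at 500 UMIs the median olfactory receptor gene was separated too.

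Since the Ehmt2fl/fl sections had fewer enzyme-rich spots, Plin2 was read at like enzyme shares, with fat-list and Car3-Cfd-Fabp4 spots left out. In spots with 20% to 40% of enzyme UMIs it stood at 57.6 and 68.3 non-enzyme CPM in Ehmt2+/+ and at 181 and 154 in Ehmt2fl/fl. The first of these rests on 5 UMIs in 49 spots, with an exact binomial interval, which covers counting error only, of 18.7 to 134. The other Ehmt2+/+ section had one of 50.2 to 90.8, and both lay below those of the Ehmt2fl/fl sections, 165 to 199 and 140 to 170. In spots with 40% to 60% it stood at 59.2 and 60.4 against 111 and 131. In that second bin the intervals ran from 51.0 to 68.3 and 51.8 to 70.0 in the Ehmt2+/+ sections and from 69.8 to 169 and 93.0 to 180 in the Ehmt2fl/fl sections. Plin2 was thus higher in Ehmt2fl/fl sections at either enzyme share, with overlapping intervals for Ehmt2+/+ section 2 and Ehmt2fl/fl section 1 in the second bin. The share of all genes separated within these bins was not counted. Spots poor in enzyme, under 10%, gave 179 and 132 in Ehmt2fl/fl, within the range of the exocrine bins of the same sections.

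The macrophage list (C1qa, C1qb, C1qc, Csf1r, Cd68, Adgre1, Mrc1, Trem2 and Gpnmb) moved the same way: in exocrine spots its 9 genes, none at 0, summed to 194 and 281 non-enzyme CPM in Ehmt2+/+ and 919 and 717 in Ehmt2fl/fl. In exocrine spots with no UMI of this list, Plin2 was 43.2 and 62.1 non-enzyme CPM in Ehmt2+/+ and 180 and 144 in Ehmt2fl/fl, nearly the values over all exocrine spots. In spots with such a UMI it was 47.9 and 48.8 against 206 and 155. Macrophage RNA below detection in a spot is not removed by this split.

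Fabp4 in exocrine spots was 106 and 163 non-enzyme CPM in Ehmt2+/+ and 308 and 274 in Ehmt2fl/fl, or 135 ± 40.6 against 291 ± 23.8 (SD, n = 2), and the sections did not overlap. As deposited it was found in 22.1% and 6.30% of exocrine spots against 19.4% and 19.0%, and at 500 UMIs in 2.22% and 3.82% against 10.8% and 9.78%. In spots with 20% to 40% of enzyme UMIs the genotypes were closer, at 184 and 179 in Ehmt2+/+ and 296 and 276 in Ehmt2fl/fl, the first on 16 UMIs. In spots with 40% to 60% they were 125 and 154 against 268 and 290, about as far apart as over all exocrine spots. Capillary endothelium genes (Pecam1, Cdh5, Kdr, Flt1, Emcn, Tie1 and Plvap) summed to 274 and 409 non-enzyme CPM in Ehmt2+/+ and 723 and 615 in Ehmt2fl/fl, and their part in the Fabp4 values was not tested. Within each section Fabp4 was somewhat higher in spots with a UMI of that list, at 112, 200, 326 and 294 non-enzyme CPM, than in spots without, at 98.2, 155, 293 and 256. The macrophage list gave the same direction, at 106.4, 208.7, 314.5 and 278.2 in spots with a UMI of it. In spots without, Fabp4 was 105.7, 157.1, 300.6 and 269.8.

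Lpl in exocrine spots was 25.6 and 26.8 non-enzyme CPM in Ehmt2+/+ and 41.2 and 33.9 in Ehmt2fl/fl, or 26.2 ± 0.840 against 37.5 ± 5.14 (SD, n = 2). Pnpla2 went the other way: it was 112 and 62.4 in Ehmt2+/+ and 40.7 and 41.9 in Ehmt2fl/fl, or 87.2 ± 35.1 against 41.3 ± 0.824 (exact permutation test, p = 0.333). Ehmt2+/+ section 1 was far above its own replicate, and the share of all genes lower in both Ehmt2fl/fl sections was not counted. The share of spots with Pnpla2 at 500 UMIs was 2.27% and 1.47% in Ehmt2+/+ and 1.52% and 1.59% in Ehmt2fl/fl, where the sections overlapped. In spots with 20% to 40% of enzyme UMIs Pnpla2 stood at 92.1 and 47.9 against 41.2 and 42.7, the first on 8 UMIs. In those with 40% to 60% it stood at 127 and 59.7 against 65.8 and 44.9, the last pair on 13 UMIs each, and the genotypes overlapped. The 4 genes near background (Adipoq, Plin1, Cidec and Retn) were at 20 or fewer UMIs each in the exocrine spots of Ehmt2+/+ section 1.

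**Figure D4:**
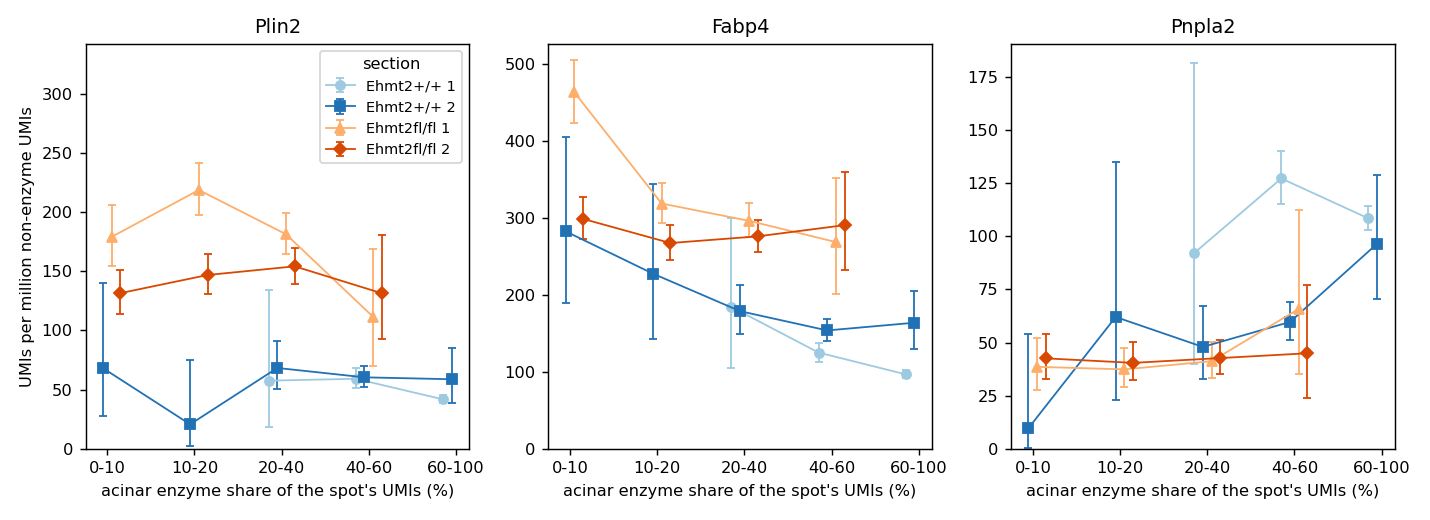
Non-enzyme CPM of Plin2, Fabp4 and Pnpla2 (y axis) in spots grouped by the percent of their UMIs from acinar enzyme genes (x axis), 1 line per section, with exact 95% binomial intervals that cover counting error only. Fat-list and Car3-Cfd-Fabp4 spots are left out. Groups of fewer than 20 spots are not shown, and the Ehmt2fl/fl sections lie above the Ehmt2+/+ sections for Plin2 wherever both genotypes have spots. The share of all genes separated within these groups was not counted.

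In exocrine spots both Ehmt2fl/fl sections were above both Ehmt2+/+ sections in CPM for 9 of the 10 genes, against 88.5% of the 20375 genes compared. In non-enzyme CPM 5 of the 10 did so, namely Adipoq, Plin2, Fabp4, Lpl and Retn, against 44.6% of all genes. Neither share is far from that of all genes, so the separation of Plin2 by genotype is one that a large part of the transcriptome shows.

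Sums over each section were tested with edgeR's quasi-likelihood test with TMM scaling, the section being the replicate and p-values adjusted over all genes. In spots over tissue 0 of the 10 genes passed, against 0.0947% of the 20066 genes tested, and in exocrine spots 0 of the 10 against 0.0898% of 20039. At an unadjusted p under 0.05 there was 1 of the 10, Pnpla2, in either fit, against 5.01% of all genes over tissue and 4.5% in exocrine spots. DESeq2 gave an adjusted p to 3 of the 10 genes, Fabp4, Plin2 and Pnpla2, and called Pnpla2, against 18.5% of the genes it adjusted over tissue and 10.4% in exocrine spots. The low number of calls does not show that the genes are unchanged, since the common dispersion between sections was 0.362 over tissue. Of the 19 genes called over tissue, 10 lie on the Y chromosome.

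In tissue spots the log2 fold change (Ehmt2fl/fl over Ehmt2+/+) had a median of 0.76 over the 10 genes and 0.25 over all genes tested, and in exocrine spots 0.51 and 0.24. Pnpla2 gave -2.24 ± 0.96 (SE) over tissue and -2.31 ± 0.94 in exocrine spots, with edgeR adjusted p of 0.872 and 0.893. Ehmt2+/+ section 1 decided much of this value: without that section it was -0.65 and -0.78, and with library sizes alone, no TMM factors used, it was -0.0082 over tissue and -0.22 in exocrine spots. By DESeq2 it gave -2.76 and -2.80, with adjusted p of 0.0331 and 0.0381. Car3 gave the largest positive value over tissue, 1.49 ± 0.91, and 0.10 ± 0.70 in exocrine spots. Cfd gave 1.29 ± 0.73 and 0.48 ± 0.71, and Fabp4 0.55 ± 1.05 and 0.21 ± 0.997. The exocrine set leaves out enzyme-poor spots as well as fat-list spots. With only the fat-list and Car3-Cfd-Fabp4 spots taken out of the tissue, Car3 was 0.83, Cfd 0.94 and Fabp4 0.27, but the levels of these 3 genes chose most of the spots removed.

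Plin2 gave 0.66 ± 0.94 over tissue and 0.75 ± 0.92 in exocrine spots, with edgeR adjusted p of 0.872 and 0.893. On the TMM scale its level was 60.1 and 30.2 CPM in Ehmt2+/+ and 88.1 and 54.4 CPM in Ehmt2fl/fl, and here the genotypes overlapped. The TMM factors ran from 0.282 in Ehmt2+/+ section 1 to 2.11 in Ehmt2fl/fl section 2. With library sizes alone the median of all genes rose to 1.64 over tissue and Plin2 to 2.49, adjusted p = 0.0440, when 0.972% of all genes were called, and it was also called in exocrine spots, with 1.71% of all genes. Relative to all genes Plin2 over tissue was 0.41 with TMM and 0.86 without. Relative to all genes its sign turned with 1 section: it was -0.42 over tissue and -0.30 in exocrine spots without Ehmt2+/+ section 2, and 1.23 and 1.30 without Ehmt2+/+ section 1. Lpl was -0.52 ± 0.73 with TMM but 1.43 when library sizes were used alone and 0.12 under upper-quartile scaling, so its direction is not settled.

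Leaving out Ehmt2+/+ section 2 gave calls for 8 of the 10 genes in either fit, when 83.0% of all genes tested were called over tissue and 82.6% in exocrine spots. In that setting Adipoq, Plin1, Cidec, Retn, Cfd and Car3 were called higher and Lpl and Pnpla2 lower in Ehmt2fl/fl, while Plin2 and Fabp4 were not called. The comparison then sets 1 deep section against both Ehmt2fl/fl sections. Without any of the other 3 sections 0 of the 10 were called.

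**Figure D5:**
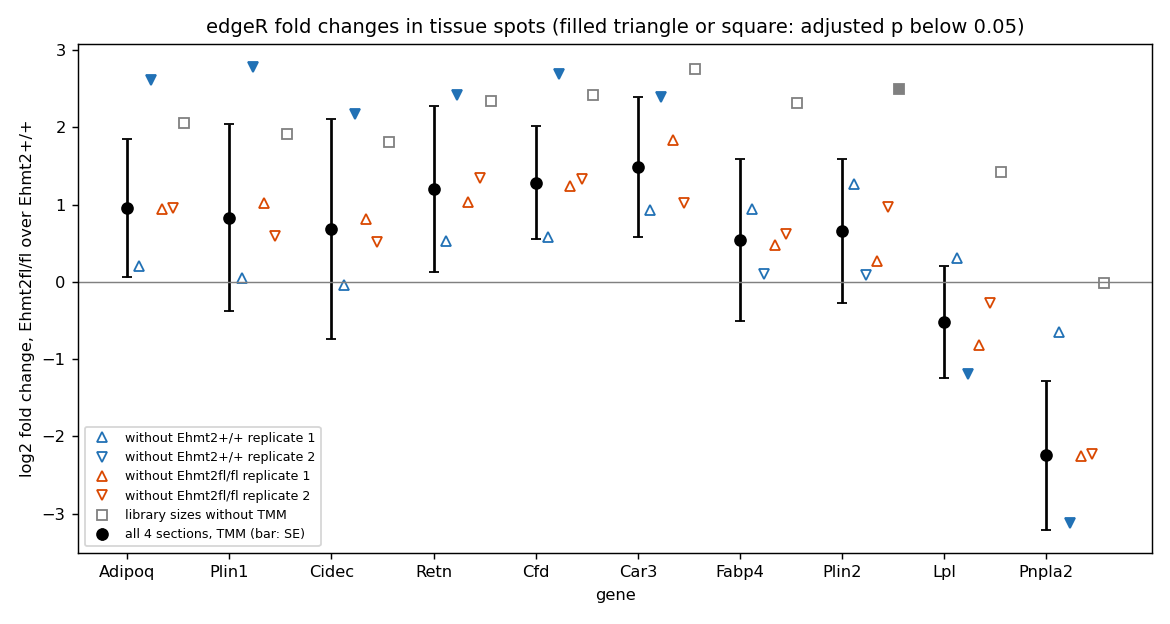
Log2 fold change over tissue (Ehmt2fl/fl over Ehmt2+/+) for each of the 10 genes from edgeR with all 4 sections (black, bar: SE), with each section left out, and with library sizes in place of TMM factors, filled symbols marking an adjusted p below 0.05. Leaving out Ehmt2+/+ section 2 gives 8 calls, leaving out any other section gives none, and Plin2 stands between 0.10 and 2.49 in the settings drawn.

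The wider pathway was read from 37 other genes of lipid droplets and triglyceride handling. Of these 36 were tested in each fit and 0 passed edgeR, with 3 at an unadjusted p under 0.05 in either, against the 5.01% and 4.5% of all genes above. DESeq2 adjusted 6 of them in each fit and called 2 over tissue and 1 in exocrine spots, against 18.5% and 10.4% of all the genes it adjusted. Over tissue 13 had a positive and 23 a negative log2 fold change, with a median of -0.27 against 0.25 for all genes, and in exocrine spots it was 12 and 24, with a median of -0.26 against 0.24. As a sum the list stood at 1677 and 1725 non-enzyme CPM in the exocrine spots of Ehmt2+/+ and at 1859 and 1940 in those of Ehmt2fl/fl. The 4 with the highest mean level in exocrine spots were Fabp5, Plin3, Rab18 and Aup1.

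Fabp5, a fatty acid carrier of epithelium and macrophages, gave 57.7 and 71.7 CPM in Ehmt2+/+ and 197 and 202 CPM in Ehmt2fl/fl exocrine spots, with a log2 fold change of -0.26 ± 1.003. Plin3, a perilipin of many tissues, gave 84.4 and 106 against 137 and 139 CPM and -1.34 ± 1.03. Rab18, a small GTPase of the droplet surface, gave 73.5 and 84.9 against 132 and 103 CPM and -1.32 ± 1.01. Aup1, which links droplets to protein degradation in the endoplasmic reticulum, gave 116 and 71.6 against 103 and 99.5 CPM and -2.03 ± 1.06. For Fabp5, Plin3 and Rab18 the CPM were higher in both Ehmt2fl/fl sections, as for 88.5% of the 20375 genes compared. Their TMM-scaled fold changes were negative. None of the 4 passed (edgeR adjusted p of 0.918 for Fabp5 and 0.893 for the other genes).

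No gene outside these lists had a pattern over spots close to that of Adipoq or of Plin2: among 3204 genes with at least 200 UMIs in each section, none reached a mean r of 0.2 with either.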

How the data were processed

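UMIs were counted per gene and spot in 4 sections of formalin-fixed, paraffin-embedded pancreas processed with CytAssist and Visium. The authors aligned reads with Space Ranger 2.0.1, as the file headers give it, to mm10 with the mouse probe set, and deposited raw UMI counts for each gene in every listed spot, those off the tissue included. Their later normalized values were not used. Of 32589 features, 304 deprecated ones were left out. The deposited tissue positions carry no barcodes, so tissue spots were set by the low point of the histogram of log10(UMIs + 1) (bins of 0.05, smoothing SD of 3 bins). The genes and lists were chosen with earlier results of these data known. Sections are numbered in accession order. No label says more of separate animals than a different number in each title, so p-values measure the spread between sections.

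The text names all 10 genes. Of the 37 droplet and triglyceride genes it names any that passed edgeR and the 4 with the highest mean CPM in exocrine spots. Those called by DESeq2 alone are counted and not named. Of the genes most like Adipoq or Plin2 it names those with a mean r of at least 0.2 (5 at most). Section sums were fitted with edgeR 4.0.16 under R 4.3.3 (quasi-likelihood test, TMM, minimum count 10, Benjamini-Hochberg threshold 0.05). The alternatives were DESeq2 1.42.0, other scalings, filters and spot definitions, and each section left out. The fit was tested on simulated counts in which 199 genes tested had a log2 change of 2. At a dispersion of 0.05 it recovered 194 of them, with 12 false calls. At 0.362, the dispersion of these data over tissue, it recovered 0, so it could hardly call a change of that size here. Shares were compared by two-sided exact permutation over the 6 splits of sections. Intervals are 95% and cover counting error only. Other steps ran in Python 3.11.15 (matplotlib 3.10.9, numpy 2.4.6, pandas 2.3.3, scipy 1.17.1).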

Additional observations from a re-analysis of the deposited data

Results flagged for a closer look

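In CPM, the level of Plin2 in Car3-Cfd-Fabp4 spots relative to exocrine spots lay on opposite sides in the genotypes. It was higher in both Ehmt2+/+ sections and lower in both Ehmt2fl/fl sections. In non-enzyme CPM the genotypes were not on opposite sides. On that scale Plin2 in Ehmt2+/+ section 2 was 51.8 in these spots against 60.5 in exocrine spots, so it was lower there too. The mean log2 ratio of CPM in Ehmt2+/+ minus that in Ehmt2fl/fl was 1.91. The difference was not tested. It rests on 2 UMIs and 1 UMI in Ehmt2+/+ and on 3 and 20 UMIs in Ehmt2fl/fl. In Ehmt2+/+ section 1 all 12 spots of the class were exocrine spots themselves, so the classes are not alike between genotypes.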

How the results depend on the processing

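Of the 10 genes, 0 were called over tissue and in exocrine spots under upper-quartile scaling, with enzyme genes left out, without the low-count filter and under every other spot definition tried, while DESeq2, which adjusted only 3 of the 10, and library sizes without TMM factors called 1 in each fit, Pnpla2 and Plin2 in turn. Leaving out 1 section gave 0 to 8 calls. All genes called numbered 19 over tissue and 18 in exocrine spots, against 401 and 226 by DESeq2, 195 and 343 with library sizes alone, 3 and 3 with upper-quartile scaling, 6 and 72 with enzyme genes left out and library sizes alone, and 0 to 16701 and 1 to 16582 with 1 section left out.

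The direction of the log2 fold change turned in these cases, and the cause was not tested. Lpl over tissue became 1.43 with library sizes alone, 0.12 with upper-quartile scaling and 0.57 with enzyme genes left out as well, and in exocrine spots 1.32, 0.10 and 0.52. With 1 section left out, Lpl ran from -1.19 to 0.31 in either fit, and Cidec from -0.038 to 2.18 over tissue. In exocrine spots Cidec ran from -0.18 to 1.97, Plin1 from -0.10 to 2.61, Cfd from -0.19 to 1.61, Adipoq from -0.0054 to 2.33, Car3 from -0.36 to 0.64 and Fabp4 from -0.29 to 0.66, the lowest value of each without Ehmt2+/+ replicate 1 except for Fabp4, where it came without Ehmt2+/+ replicate 2. DESeq2 gave Fabp4 -0.19 and Car3 -0.13 in exocrine spots, and Car3 was -0.0018 at an enzyme share of at least 20%.

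The difference in the share of fat-list spots ran from 0.0309 to 1.37 percentage points over other limits and from 0.192 to 0.441 with 1 section left out, and that of exocrine spots with Plin2 from 2.44 to 6.10 over other spot choices and from 1.59 to 9.95 with 1 section left out. Both kept their direction. The settings without macrophage UMIs, without fat-type spots, with enzyme genes left out and library sizes alone, and by Car3, Cfd and Fabp4 were chosen after seeing the data. The fit within fat-list spots was not run because it needed at least 20 such spots in every section. No paired analysis was possible because the titles give every section a number of its own and the genotypes share none, the replicate numbers used here being only names.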

Other observations

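Spots off the tissue carried the 10 genes at a sum of 121 and 386 CPM in Ehmt2+/+ and 1760 and 1432 CPM in Ehmt2fl/fl, against 114, 242, 691 and 816 CPM over tissue. Plin2 off the tissue was 17.8, 28.8, 146 and 140 CPM, on 9, 5, 20 and 17 UMIs. Fabp4 was 43.6, 127, 862 and 551 CPM off the tissue, against 39.8, 88.3, 298 and 336 CPM over it. Car3 was 9.91, 110, 416 and 420 CPM, against 3.22, 35.5, 81.0 and 177 CPM. The UMI limit for a tissue spot was 472 and 149 in Ehmt2+/+ and 149 and 105 in Ehmt2fl/fl. Whether spots over fat fell below these limits, and so out of the fat-list shares, was not tested.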
